A study of Thunnus thynnus with 30 samples.

Results

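The proteasome is the barrel-shaped protease that degrades ubiquitin-tagged proteins, and its subunits were examined here at the RNA level in whole larvae of the Atlantic bluefin tuna (Thunnus thynnus), together with NFE2L1, a transcription factor of proteasome genes. Members were all rows of the deposited count table whose name begins with PSMA to PSMG and a number, whatever the capitals, plus the row NFE2L1. This gave 39 of 7295 rows, 38 of them proteasome rows. All 39 passed the filter on low counts, after which 7292 rows were tested, and the lowest count of any member in any library was 81.

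The study asked what the DHA content of live prey does for the growth and development of the larvae; DHA, or docosahexaenoic acid, is a polyunsaturated fatty acid of marine food webs. Wild-type larvae were raised from the second day after hatch on rotifers (Brachionus rotundiformis) with a DHA content of 2.0, 3.6 or 10.9 mg per g of dry matter (low, medium and high DHA), and each treatment had 3 tanks. Libraries were made from whole larvae at ages of 5, 10 and 15 dph (days post hatch). All groups were thus reared on rotifers enriched from dilutions of the same preparation, and no group without enriched rotifers was analysed here. The 9 groups of age and DHA level hold 3 libraries each, except high DHA at 5 dph, which holds 2 (replicates 2 and 3 by title), so 26 libraries in all. The treatment label of replicate 3 of that group carries another replicate number, and the number in the title was used. The labels do not say which tank a library came from, so p-values measure the spread between these libraries.

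Totals ran from 12805866 to 19169404 counts per library. Levels are given as counts per 1000000 (CPM) after scaling of the libraries for composition, with the SD between libraries, and differences as log2 fold changes ± SE from edgeR's quasi-likelihood test, fitted on all rows, with p-values adjusted by the Benjamini-Hochberg method over all 7292 tested rows and a threshold of 0.05. CPM are not corrected for gene length, so levels are compared between libraries and not between genes. The common biological coefficient of variation was 11.9%. Replicate 2 of medium DHA at 5 dph and replicate 2 of low DHA at 10 dph had the lowest scaling factors (0.808 and 0.861). Next came replicate 3 of low DHA at 10 dph (0.896) and replicate 1 of medium DHA at 5 dph (0.909). A measure of the balance between long and short transcripts also differed between libraries. This length score was the mean log2 CPM of 37 rows of very long genes less that of 48 rows of short respiratory chain genes, none of them a member. The list of long genes includes genes of muscle and neurons, and the short rows all belong to the respiratory chain. The score can therefore also carry tissue shares, respiratory chain levels or effects of diet and age. A fit with the score as a covariate can take these out too. This score was -1.76 ± 0.14 with low, -2.72 ± 0.44 with medium and -2.23 ± 0.04 with high DHA at 5 dph, and -2.93 ± 0.57, -2.04 ± 0.18 and -2.22 ± 0.21 at 10 dph in the same order. Because the tissue is a whole animal, fewer cells of a type and less RNA per cell cannot be told apart in any of these values.

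The proteasome is built from a catalytic barrel, the 20S core, and a regulatory cap, the 19S particle. The core has outer alpha rings, which gate the entry, and inner beta rings, which hold the proteolytic sites. The cap recognises ubiquitin, removes it, and unfolds the substrate with a ring of ATPases. In mammalian cells NFE2L1 is held at the endoplasmic reticulum and degraded by the proteasome itself. When proteasome capacity falls short it is released by cleavage and switches on the proteasome subunit genes together, so its activity is set largely after translation, and its mRNA level alone does not report it. In vertebrate muscle the ubiquitin-proteasome pathway is a major route of protein breakdown.

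By role, the member rows were 8 of the alpha ring, 6 standard subunits of the beta ring, 6 cap ATPases, 11 other cap subunits, 1 chaperone of cap assembly (PSMD10), 3 chaperones of core assembly (psmg1, psmg2 and PSMG4), 2 activators (Psme1 and PSME3) and 1 inhibitor (Psmf1). PSMB6, a catalytic standard beta subunit, and the inducible beta subunits of the immunoproteasome were not analysed here. Row names are spelled as deposited, and 31 of the 39 member names were found among the RefSeq symbols of this species. PSMA4 and Psma4, and PSMC3 and Psmc3, are rows whose names differ only in capitals, and the reference lists 1 gene for each name. For NFE2L1 the reference lists 2 genes, and the table holds a second row, Nfe2l1, which the rule does not take but which is described beside the first. How reads were assigned to rows of the same name is not given in the sources used here, so these rows are uncertain as separate genes.

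The row NFE2L1, taken alone, was highest in the youngest larvae on low DHA. At 5 dph it read 90.6, 95.5 and 103 CPM in the low DHA libraries, 48.9, 64.5 and 64.0 CPM with medium DHA, and 51.0 and 55.7 CPM with high DHA. The low DHA libraries lay above all 23 others in the study, of which the highest was a low DHA library at 15 dph with 85.2 CPM. The group means were 96.4 ± 6.37 CPM with low (SD, n = 3), 59.1 ± 8.86 with medium (n = 3) and 53.4 ± 3.30 with high DHA (n = 2). NFE2L1 was lower with high than with low DHA by a log2 fold change of -0.85 ± 0.15 (edgeR adjusted p = 0.0138) and lower with medium than with low DHA by -0.71 ± 0.13 (edgeR adjusted p = 0.00561). These comparisons share the low DHA libraries. Medium and high DHA themselves differed by -0.15 ± 0.14 (edgeR adjusted p = 0.588).

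**Figure D1:**
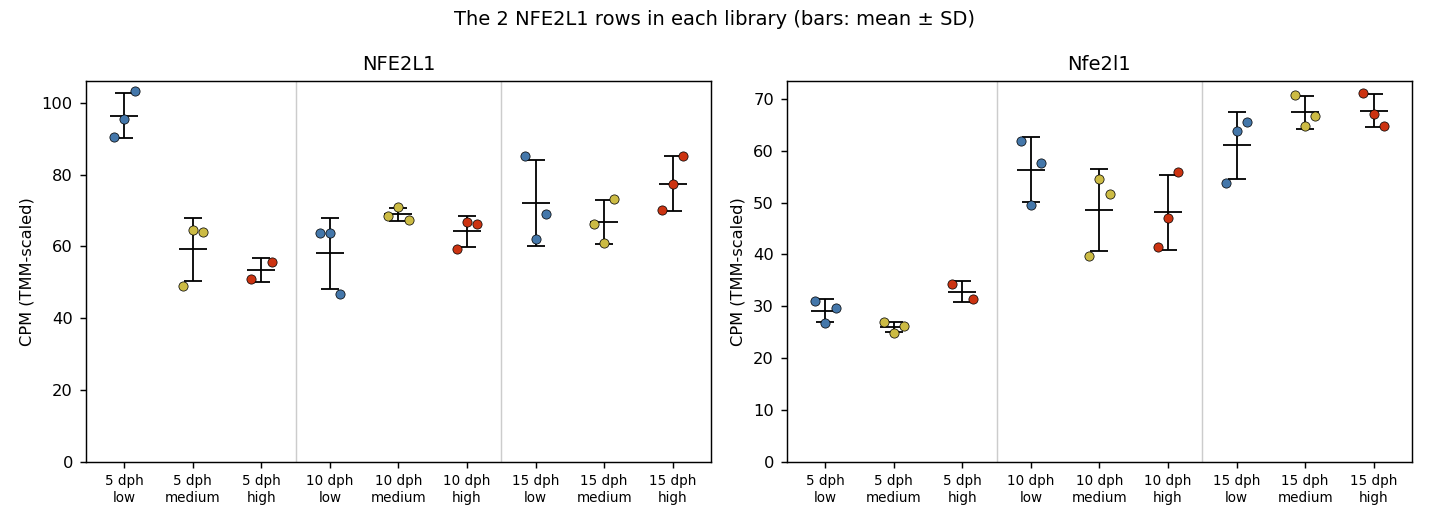
CPM of the rows NFE2L1 (left) and Nfe2l1 (right) in each of the 26 libraries, by group; points are libraries and bars give the mean ± SD. The 3 low DHA libraries at 5 dph stand at 90.6 to 103 CPM of NFE2L1, above all others, while Nfe2l1 is lower in all groups at 5 dph than at 10 and 15 dph.

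At 10 dph NFE2L1 read 63.8, 63.7 and 46.7 CPM with low, 68.5, 70.9 and 67.3 CPM with medium, and 59.3, 66.9 and 66.4 CPM with high DHA. At 15 dph the values were 85.2, 61.9 and 69.0 CPM, 66.3, 61.1 and 73.1 CPM, and 70.0, 77.4 and 85.1 CPM in the same order. The libraries of different DHA levels overlapped at 15 dph. At 10 dph medium DHA lay above both low and high DHA without passing the test. The log2 fold changes were 0.25 ± 0.13 for medium with low (edgeR adjusted p = 0.144) and -0.10 for high with medium DHA (edgeR adjusted p = 0.691). No other DHA comparison of NFE2L1 at these ages passed either, with log2 fold changes between -0.11 and 0.21. Ordered by mean level, low DHA at 5 dph came first, then high and low DHA at 15 dph, medium DHA at 10 dph, medium DHA at 15 dph, high DHA at 10 dph, medium DHA at 5 dph, low DHA at 10 dph and high DHA at 5 dph. Below the first place, every neighbour in that order overlapped with the next.

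The row Nfe2l1 was higher at each later age. At 5 dph its means were 29.1 CPM with low, 26.02 with medium and 32.8 with high DHA, followed in the same order by 56.4, 48.6 and 48.1 CPM at 10 dph and by 61.1, 67.4 and 67.7 CPM at 15 dph. It rose from 5 to 10 dph by 0.80 ± 0.07 (edgeR adjusted p = 8.5e-09) and from 10 to 15 dph by 0.36 ± 0.07 (edgeR adjusted p = 0.000113), while NFE2L1 changed by -0.08 ± 0.08 (edgeR adjusted p = 0.376) and rose by 0.18 ± 0.07 (edgeR adjusted p = 0.0406). In no DHA comparison did Nfe2l1 pass the threshold. The ratio of NFE2L1 to Nfe2l1 CPM was 3.32 ± 0.35 with low DHA at 5 dph and 0.992 ± 0.091 with medium DHA at 15 dph. CPM are not corrected for gene length, so neither this ratio nor a sum of both rows gives transcript numbers. Both are compared between groups only. Added up, the means of NFE2L1 and Nfe2l1 were higher with high DHA at 15 dph (77.5 and 67.7 CPM) than with low DHA at 5 dph (96.4 and 29.1 CPM). The first place of low DHA at 5 dph is thus that of the NFE2L1 row alone.

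When the counts of both rows were summed, the lower level at 5 dph was smaller but remained past the threshold, at -0.55 for high with low DHA (edgeR adjusted p = 0.0241) and -0.57 for medium with low (edgeR adjusted p = 0.00463), and the change from 5 to 10 dph became a rise of 0.23 (edgeR adjusted p = 0.000773). The call for high with low DHA at 5 dph was lost when replicate 2 or 3 of low DHA or either high DHA library was left out (adjusted p from 0.0564 to 0.371, log2 fold change from -0.79 to -0.92) and with the length score as a covariate (-0.83, adjusted p = 0.0575). The call for medium with low was lost without medium replicate 2 (-0.78, adjusted p = 0.0565) and with the length score (-0.65, adjusted p = 0.65).

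The proteasome subunits at 5 dph were lowest with low DHA. With medium DHA 30 of the 38 proteasome rows were higher than with low DHA and 0 were lower, against 16.7% of all tested rows higher and 10.4% lower. The median log2 fold change of the 38 rows was 0.50, a 1.41-fold higher level, against 0.04 over all rows, and all 38 differences were above 0. The libraries of the groups did not overlap for 33 of 38 rows, each higher with medium DHA, as for 26.2% of all rows. Summed over the 38 rows, proteasome transcripts made up 3679 ± 77.4 CPM with low and 5072 ± 915 CPM with medium DHA (SD, n = 3 each).

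All core rows in the table rose. All 8 alpha rows and all 6 beta rows passed, with medians of 0.56 and 0.58. The alpha subunit row PSMA1 read 109.9, 105 and 107 CPM with low DHA and 156, 190.2 and 129 CPM with medium DHA, a difference of 0.56 ± 0.12 (edgeR adjusted p = 0.00561). Another, Psma5, read 104, 110.2 and 107 CPM against 151, 205 and 124 CPM (0.58 ± 0.12, edgeR adjusted p = 0.00561). In both, the lowest medium library was above the highest low library, and the medium libraries were spread far wider than the low ones. The structural beta subunit row psmb3 read 112, 107 and 103 CPM against 162, 195 and 129 CPM (0.60 ± 0.12, edgeR adjusted p = 0.00561). Psmb2, also a structural beta subunit, read 85.3, 82.9 and 80.1 CPM against 125, 149.8 and 103 CPM (0.60 ± 0.13, edgeR adjusted p = 0.00561). The rows with proteolytic sites rose too, PSMB7, the trypsin-like site in mammals, by 0.61 ± 0.13 (edgeR adjusted p = 0.00561) and Psmb5, the chymotrypsin-like site that clinical proteasome inhibitors bind, by 0.34 ± 0.09 (edgeR adjusted p = 0.0121).

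In the cap, all 6 ATPase rows rose, with a median of 0.50. The ATPase Psmc1 read 108, 102 and 102 CPM with low and 143, 166 and 124 CPM with medium DHA (0.47 ± 0.10, edgeR adjusted p = 0.00561). Of the 11 other cap rows 7 rose, with a median of 0.43 over the 11. PSMD13, a subunit of the lid, read 117, 120.0 and 113 CPM against 168, 216 and 137 CPM (0.57 ± 0.11, edgeR adjusted p = 0.00561). Psmd14, the enzyme of the lid that cuts ubiquitin from the substrate, rose by 0.65 ± 0.14 (edgeR adjusted p = 0.00561). The 4 cap rows that did not pass were PSMD1 (0.19 ± 0.10), PSMD2 (0.27 ± 0.10), psmd11a (0.13 ± 0.11) and psmd11b (0.25 ± 0.12), of which PSMD1 and PSMD2 are the large scaffold proteins of the cap base.

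Outside the core and cap, 3 of the 7 rows rose. Of the chaperones, psmg1 rose from 21.1, 18.3 and 19.2 CPM to 30.6, 43.5 and 23.3 CPM (0.72 ± 0.16, edgeR adjusted p = 0.00561), and PSMD10, the assembly chaperone also known as gankyrin, by 0.52 ± 0.16 (edgeR adjusted p = 0.0236). The chaperone psmg2, which pairs with psmg1 in mammals, differed by 0.13 ± 0.16 (adjusted p = 0.571) and PSMG4 by 0.04 ± 0.08 (adjusted p = 0.746). The nuclear activator PSME3 rose by 0.30 ± 0.09 (edgeR adjusted p = 0.0167). The activator Psme1 (0.28 ± 0.11, adjusted p = 0.0554) and the inhibitor Psmf1 (0.17 ± 0.11, adjusted p = 0.279) did not pass.

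**Figure D2:**
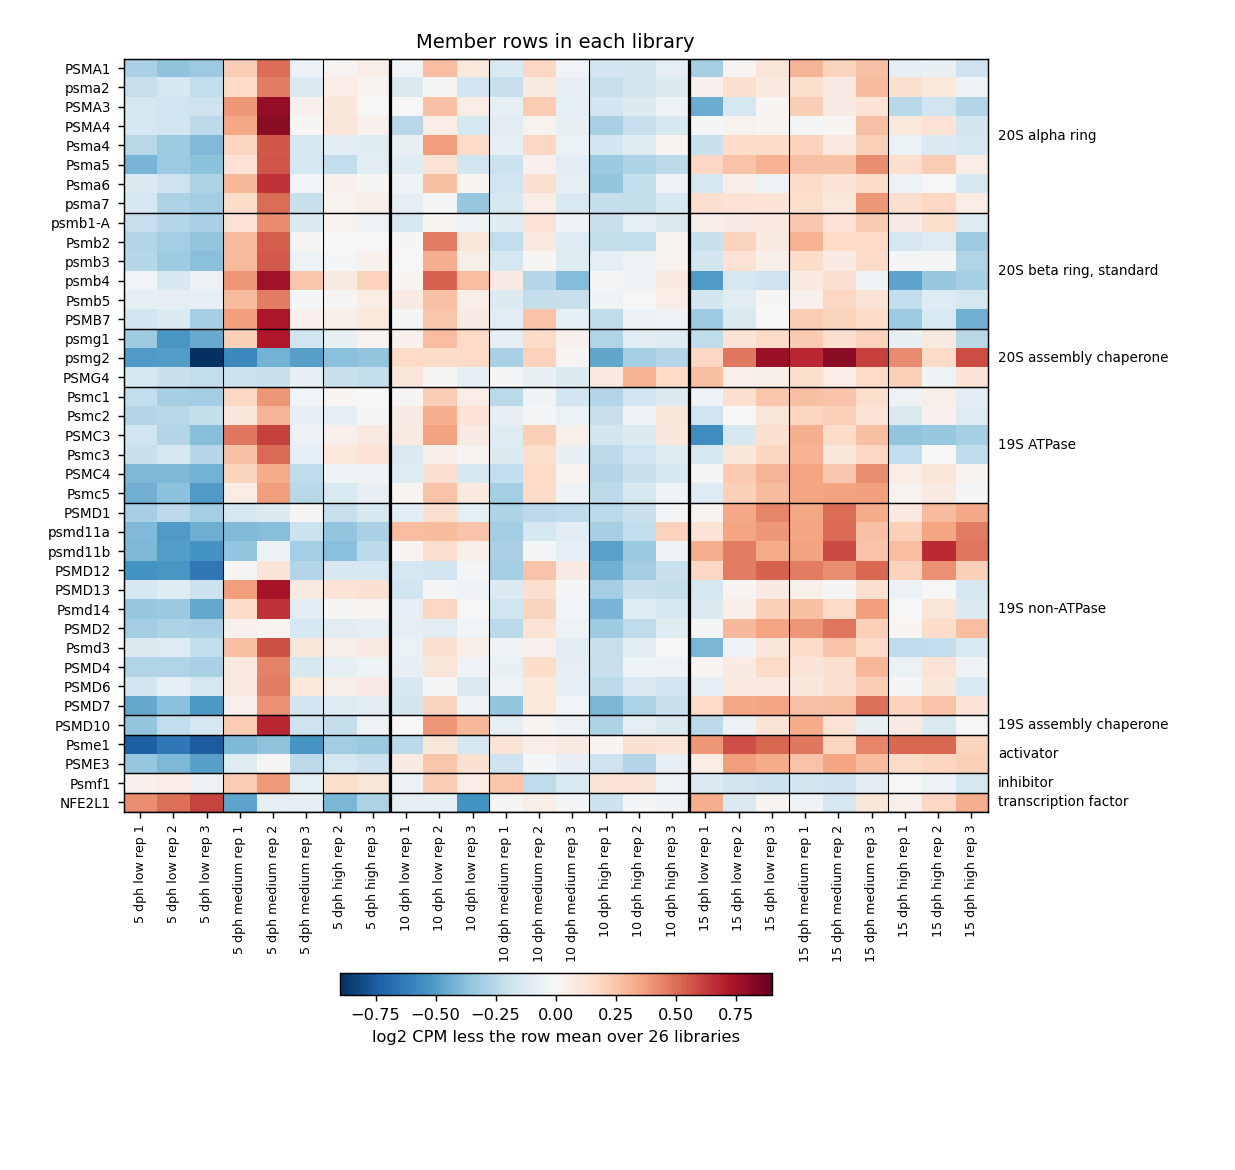
Log2 CPM of each of the 39 member rows in each of the 26 libraries, less the mean of that row over all libraries (blue below, red above), with rows grouped by role. The 3 low DHA libraries at 5 dph are blue over nearly all proteasome rows and red in NFE2L1, and replicate 2 of medium DHA at 5 dph is the reddest library in most rows of the core.

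The number of rows called depended on 1 library. Replicate 2 of medium DHA had the highest level of the 3 medium libraries in 34 of 38 rows, and replicate 3 the lowest in 32. Without replicate 2 the median difference was 0.34 and 0 members passed in edgeR, with 30 of 39 at an unadjusted p under 0.05; 0 of all tested rows passed in that fit, so that the loss was not limited to the members. With the length score as a covariate the median was 0.12 and 0 members and 0 of all rows passed, with 1 member at an unadjusted p under 0.05. DESeq2 on all libraries also called 30 proteasome rows higher. The length score itself differed between these groups, and its part in the result was not tested beyond that fit.

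Markers of some tissues moved in the same comparison. Of the markers of fast muscle 3 of 6 rows were higher with medium DHA and 0 lower (summed level 40050 to 41600 CPM with low and 42860 to 54430 CPM with medium DHA). Neuron markers were lower in 3 of 6 rows (876 to 900.3 CPM against 579 to 783 CPM), lens markers higher in 2 of 6 (1971 to 3209 against 3193 to 4303 CPM) and erythrocyte markers higher in 2 of 4 (828 to 928 against 1030 to 1808 CPM). Macrophage markers were lower in 1 of 2 rows (64.6 to 67.0 CPM against 45.0 to 53.1 CPM, with no overlap). In the other lists 1 of 5 liver rows was higher, and 0 of 6 pancreas and 0 of 7 enterocyte rows passed in edgeR. Among the marker rows 1 of the pancreas list was at 0 in a library and no other row was, and no T cell or lymphoid marker had a row. The part of tissue shares in the members' difference was not tested.

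With high DHA at 5 dph the subunits stood between the other groups. In 35 of the 38 rows the group means ran from low to high to medium DHA. High DHA lay above low DHA by a median of 0.24, and 37 of 38 differences were above 0, but 0 proteasome rows passed in edgeR (0.0823% of all rows passed in either direction), and DESeq2 also called 0. At an unadjusted p under 0.05, 16 proteasome rows were higher (790 of all 7292 rows in either direction). The 2 high libraries and the 3 low libraries did not overlap in 36 of 38 rows, each higher with high DHA, as in 29.6% of all rows. The smallest adjusted p among them, named after the values were seen, belonged to Psme1, at 15.0, 16.1 and 14.9 CPM with low and 20.1 and 19.9 CPM with high DHA (0.39 ± 0.12, edgeR adjusted p = 0.217). Next came the lid subunit PSMD12, at 49.7, 50.2 and 46.2 CPM against 65.3 and 65.0 CPM (0.42 ± 0.13, edgeR adjusted p = 0.232). A fit on the 5 libraries of these groups alone called 30 proteasome rows higher and NFE2L1 lower, and 1951 of all rows.

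Between high and medium DHA at 5 dph no row of the table passed in edgeR (0% of all rows). Of the members 0 passed in DESeq2 too. At an unadjusted p under 0.05, 11 proteasome rows were lower with high DHA (1417 of all 7292 rows in either direction). The median difference was -0.19. The members with the smallest p were Psma5 (-0.37 ± 0.14), PSMA3 (-0.39 ± 0.15) and PSMD13 (-0.30 ± 0.13), all alpha ring or lid subunits. Without medium replicate 3, 11 members passed, and without medium replicate 2 the median was -0.05. The count over all rows without medium replicate 3 is not reported here, so the 11 members cannot be set against it.

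**Figure D3:**
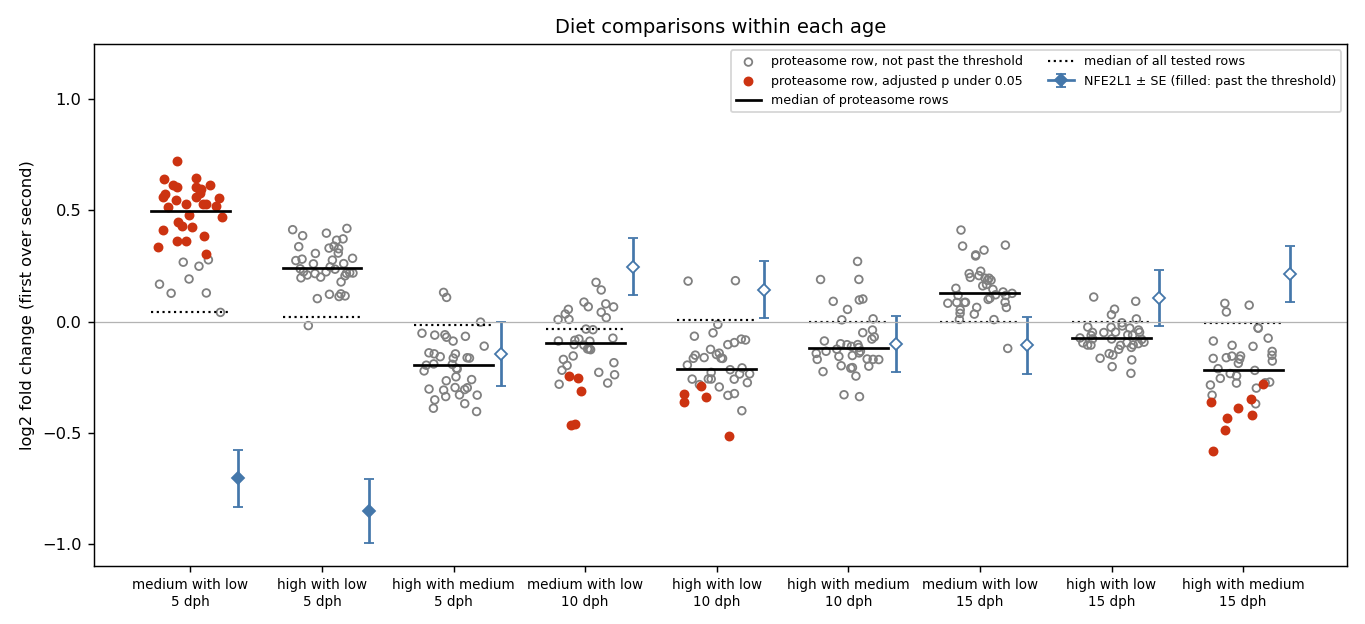
Log2 fold change of each of the 38 proteasome rows (circles, filled red where the edgeR adjusted p is under 0.05) and of NFE2L1 (diamonds ± SE, filled where past the threshold) in each DHA comparison within an age; the solid line is the median of the proteasome rows and the dotted line that of all tested rows. At 5 dph the proteasome rows lie above 0 (all 38 for medium and 37 of 38 for high with low DHA) and NFE2L1 below it, and at 10 and 15 dph most rows lie within 0.5 of 0.

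By 10 dph low DHA was no longer the group with the lowest subunit levels. High DHA was the lowest group in 29 of 38 rows, with the order high, medium, low in 18 and high, low, medium in 11. Compared with low DHA, 5 proteasome rows were lower and 0 higher with high DHA (4.39% of all rows lower and 19.4% higher), and the median was -0.21 against 0.01 over all rows. The libraries did not overlap in 17 of 38 rows, each lower with high DHA, as in 13.5% of all rows. A chaperone and an activator were among the rows that fell. The chaperone psmg2 read 11.7, 11.6 and 11.7 CPM with low and 7.49, 8.40 and 8.61 CPM with high DHA (-0.52 ± 0.15, edgeR adjusted p = 0.0171). PSME3 read 57.1, 64.8 and 59.8 CPM against 47.8, 45.4 and 51.8 CPM (-0.33 ± 0.09, edgeR adjusted p = 0.0106). For these rows the groups did not overlap.

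In the cap, psmd11a, a lid subunit, read 96.0, 96.3 and 94.5 CPM with low and 64.3, 67.8 and 91.3 CPM with high DHA (-0.36 ± 0.11, edgeR adjusted p = 0.0211). Its duplicate psmd11b fell by 0.34 ± 0.12 (edgeR adjusted p = 0.0398), and Psmc1 by 0.29 ± 0.10 (edgeR adjusted p = 0.0292). Reads could be split between psmd11a and psmd11b if their sequences are close. No alpha or beta row passed. Without replicate 2 of low DHA, which had the highest level in 34 of 38 rows, and with the length score in the fit, 0 members passed in edgeR (6 and 3 at an unadjusted p under 0.05), and with the score the median turned from -0.21 to 0.05. Between 0 and 9 members passed when other libraries of these groups were left out in turn, with 0 also without high replicate 2.

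Medium DHA was compared with the same low DHA libraries at 10 dph, and 5 rows were lower and 0 higher (10.6% of all rows lower and 24.3% higher). The median was -0.10, and 7 of the 38 rows did not overlap, each lower, against 17.2% of all rows. Both shares of lower rows were thus near those of all rows. The beta subunit row psmb4 read 126, 179 and 150.2 CPM with low and 131, 104 and 94.9 CPM with medium DHA (-0.46 ± 0.13, edgeR adjusted p = 0.00904). Psmb5 read 151, 173 and 150.2 CPM against 132, 124 and 125 CPM (-0.31 ± 0.09, edgeR adjusted p = 0.00923). The psmb4 libraries overlapped and those of Psmb5 did not. The row psmd11a, at 63.5, 70.9 and 73.7 CPM with medium DHA, fell by 0.46 ± 0.11 (edgeR adjusted p = 0.00212), PSME3 by 0.25 ± 0.09 (edgeR adjusted p = 0.0304) and Psmc1 by 0.25 ± 0.10 (edgeR adjusted p = 0.0418). With the length score the median of the 38 rows turned from -0.10 to 0.27, with 19 members at an unadjusted p under 0.05. None of these 5 rows then passed, Psmc1 turned to 0.02, and the alpha row PSMA4 was higher instead (0.47 ± 0.14, adjusted p = 0.0381). Between these groups neuron markers were higher in 5 of 6 rows (452 to 643 CPM with low and 766 to 795 CPM with medium DHA) and macrophage markers in 2 of 2 (45.6 to 55.2 against 73.7 to 88.5 CPM). Lens markers were lower in 5 of 6 rows, erythrocyte markers in 2 of 4 and fast muscle markers in 2 of 6, and their part in the members' difference was not tested. High and medium DHA at 10 dph differed in 0 member rows in edgeR (0.137% of all rows passed), and 1 was called by DESeq2. Of all 7292 rows 1222 had an unadjusted p under 0.05, and so did 5 members. The smallest p was that of PSMG4, which was higher with high DHA (0.27 ± 0.08, edgeR adjusted p = 0.134).

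At 15 dph medium DHA had the highest subunit levels. It was the highest group in 35 of 38 rows, and in 32 of these the order was high, low, medium. The summed level of the 38 rows was 4674 ± 424 CPM with low, 5217 ± 56.8 with medium and 4453 ± 167 with high DHA (SD, n = 3 each). Compared with medium DHA, 8 rows were lower and 0 higher with high DHA (9.08% of all rows lower), with a median of -0.22 against -0.01 over all rows. The groups did not overlap in 24 of 38 rows, each lower with high DHA, as in 21.1% of all rows.

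Of the core, 4 of 6 beta rows and 1 of 8 alpha rows were lower. PSMB7 read 158, 156 and 152 CPM with medium and 108, 123 and 100.2 CPM with high DHA (-0.49 ± 0.13, edgeR adjusted p = 0.0151). Psmb2 read 127, 116 and 116 CPM against 92.1, 94.4 and 81.8 CPM (-0.42 ± 0.13, edgeR adjusted p = 0.0288). Neither overlapped. In the cap, the ATPase row PSMC3 read 98.2, 88.5 and 95.05 CPM against 61.7, 62.2 and 64.0 CPM (-0.58 ± 0.15, edgeR adjusted p = 0.0114), and Psmd3, a lid subunit, 216, 229.8 and 217 CPM against 165, 165 and 175 CPM (-0.39 ± 0.11, edgeR adjusted p = 0.0184). The other rows that fell were psmb4 (-0.44 ± 0.13), PSMA1 (-0.36 ± 0.12), Psmb5 (-0.28 ± 0.09) and Psmc3 (-0.35 ± 0.12). With any 1 library of these groups left out 2 to 5 members passed, and with the length score 3, PSMC3, PSMB7 and Psmd3, at a median of -0.11 over the 38 rows. The score was -2.01 ± 0.17 with medium and -1.68 ± 0.09 with high DHA at this age. Enterocyte markers were lower with high DHA in 3 of 7 rows (2260 to 2505 CPM with medium and 1547 to 1815 CPM with high DHA) and liver markers in 2 of 5 (25240 to 26870 against 17170 to 21870 CPM), with no overlap in either. Fast muscle markers were lower in 2 of 6 rows, and 1 of 6 neuron and 1 of 2 macrophage rows were higher. The part of these tissues in the members' difference was not tested.

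High and low DHA at 15 dph differed in 0 member rows in edgeR and in DESeq2 (7.46% of all rows passed in edgeR), with a median of -0.08. At an unadjusted p under 0.05 there were 1587 of all 7292 rows and 0 members. The smallest p values were those of Psmb2 (-0.23 ± 0.13), Psmc3 (-0.20 ± 0.12) and Psmc1 (-0.15 ± 0.09). Medium and low DHA also differed in 0 member rows in edgeR and in DESeq2 (0.0686% of all rows in edgeR). At an unadjusted p under 0.05, 7 proteasome rows were higher with medium DHA (658 of all 7292 rows in either direction). All 31 core and cap differences were above 0, with a median of 0.13, and 12 of 38 rows did not overlap, each higher with medium DHA, against 6.68% of all rows. PSMC3 had the smallest p, at 53.5, 71.4 and 86.9 CPM with low DHA (0.41 ± 0.15, edgeR adjusted p = 0.404).

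Averaged over the DHA levels, both activators and the chaperone psmg2 rose from 5 to 10 and from 10 to 15 dph. From 5 to 10 dph, averaged over the DHA levels, 6 rows rose and 3 fell, against 26.7% and 31.3% of all rows, and the median was 0.01. Psme1, the interferon-inducible activator of mammals, read 14.9 to 20.1 CPM in the 8 libraries at 5 dph, with a median of 18.1, 21.2 to 27.6 CPM at 10 dph, with a median of 26.5, and 28.7 to 37.5 CPM at 15 dph, with a median of 34.9. The ages did not overlap. It rose by 0.52 ± 0.06 from 5 to 10 dph (edgeR adjusted p = 5.31e-07) and by 0.40 ± 0.06 from 10 to 15 dph (edgeR adjusted p = 5.79e-06). PSME3 rose by 0.19 ± 0.05 and 0.29 ± 0.05 (edgeR adjusted p = 0.00313 and 4.71e-05). Its mean went from 40.9 CPM at 5 dph to 60.6 CPM at 10 dph with low DHA, but from 50.5 to 51.1 CPM with medium and from 48.2 to 48.3 CPM with high DHA.

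The chaperone psmg2 rose by 0.44 ± 0.09 and then by 0.60 ± 0.08 (edgeR adjusted p = 0.000356 and 4.68e-06). With high DHA its mean was 8.02 CPM at 5 dph and 8.17 CPM at 10 dph. Its mean was 6.70 ± 1.03 CPM with low DHA at 5 dph and 16.9 ± 1.205 CPM with medium DHA at 15 dph, 2.52 times as much and the widest range of group means among the proteasome rows. The other rows that rose from 5 to 10 dph were psmd11a (0.36 ± 0.07), PSMG4 (0.23 ± 0.05) and psmd11b (0.23 ± 0.07). With low, medium and high DHA, psmd11a went from 57.9 to 95.6, 63.3 to 69.4 and 63.2 to 74.5 CPM. In the same order psmd11b went from 48.1 to 70.7, 57.3 to 61.6 and 54.5 to 55.8 CPM, and PSMG4 from 47.1 to 54.5, 48.5 to 51.3 and 46.5 to 61.8 CPM. Those that fell were PSMD13 (-0.23 ± 0.07), PSMA4 (-0.23 ± 0.08) and PSMD6 (-0.14 ± 0.05), a lid subunit. The fall of PSMA4 was not kept when its counts were summed with those of Psma4 (-0.04 ± 0.08, edgeR adjusted p = 0.671). When the length score entered the fit, 18 members passed, 6 higher and 12 lower. Of all 7292 tested rows 4313 passed with the score and 4227 without it.

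**Figure D4:**
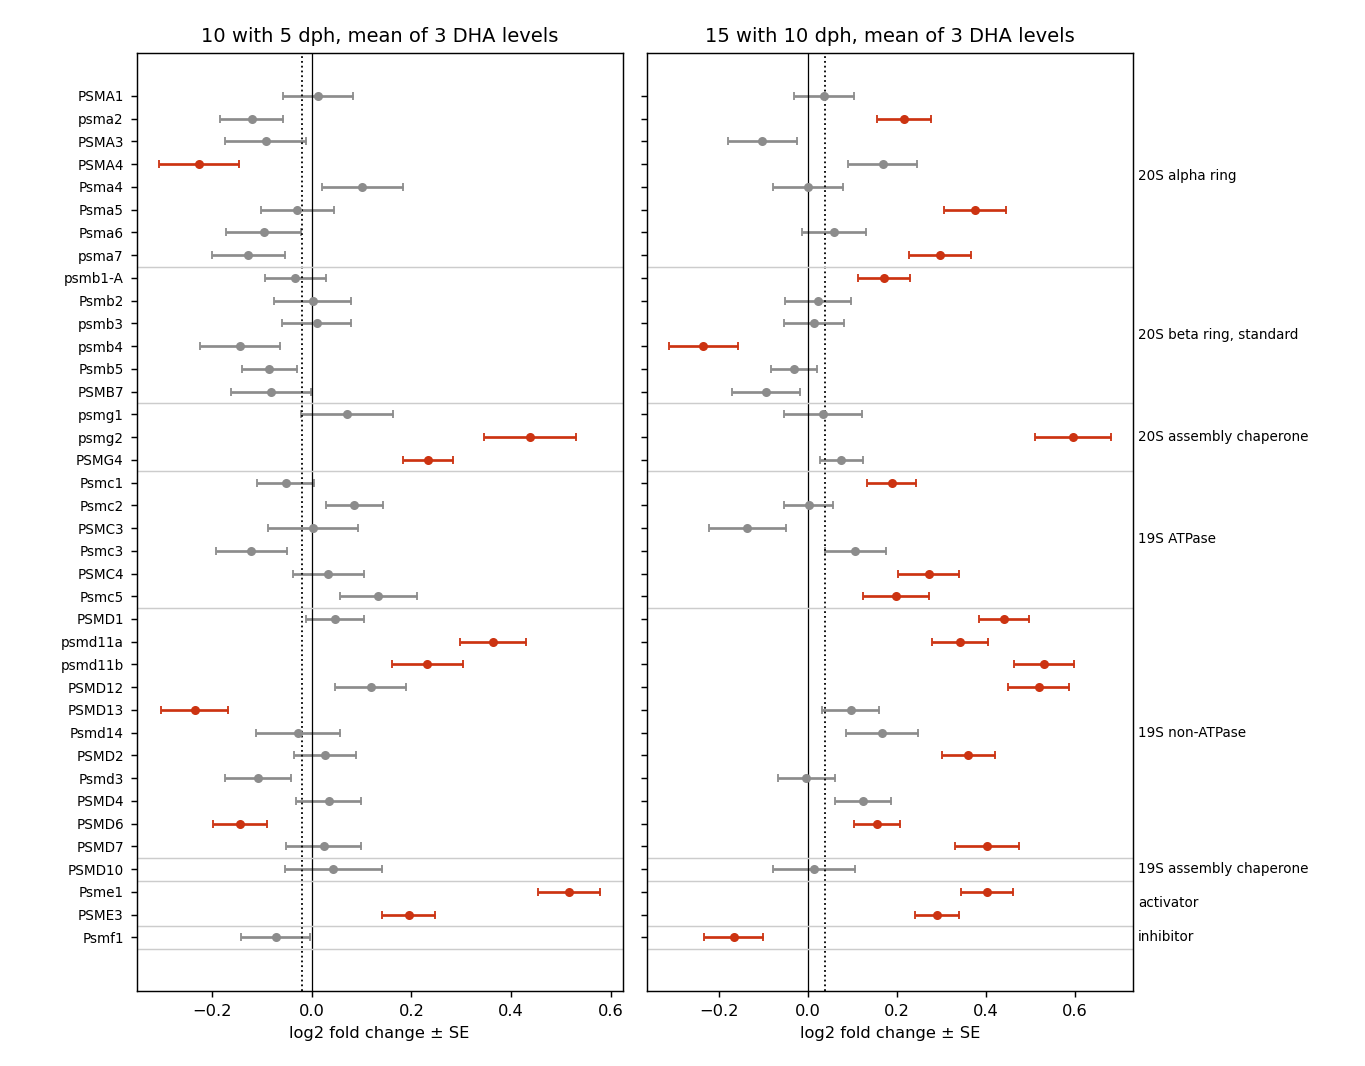
Log2 fold change ± SE of each proteasome row between ages, averaged over the 3 DHA levels, for 10 with 5 dph (left) and 15 with 10 dph (right); red marks an edgeR adjusted p under 0.05 and the dotted line the median of all tested rows. The activators, psmg2 and the psmd11 rows rise in both panels, and 7 of the 11 cap rows other than ATPases rise in the right panel.

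From 10 to 15 dph 17 proteasome rows rose and 2 fell (31.8% and 25.9% of all rows), with a median of 0.14 against 0.04 over all rows. With the length score in the fit 29 members passed, against 20 without it, and the median was 0.31. Of all 7292 tested rows 2769 passed with the score and 4208 without it. The cap subunits other than the ATPases rose in 7 of 11 rows, with a median of 0.34, the ATPases in 3 of 6, the alpha ring in 3 of 8 and the beta ring in 1 of 6. PSMD1 read 152 to 204 CPM at 10 dph, with a median of 161, and 189 to 262 CPM at 15 dph, with a median of 235 (0.44 ± 0.06, edgeR adjusted p = 1.34e-06). PSMD12 rose by 0.52 ± 0.07 (edgeR adjusted p = 1.88e-06), psmd11b by 0.53 ± 0.07 (edgeR adjusted p = 1.39e-06) and PSMD2 by 0.36 ± 0.06 (edgeR adjusted p = 2.86e-05). The rows that fell were psmb4 (-0.23 ± 0.08, edgeR adjusted p = 0.013), which with the length score as a covariate came to 0.0019, and the inhibitor Psmf1 (-0.17 ± 0.07, edgeR adjusted p = 0.0347). Marker rows moved with age as well, with 5 of 6 fast muscle rows higher and 4 of 6 neuron rows lower at 10 than at 5 dph, and with 5 of 6 fast muscle rows lower and 2 of 2 macrophage rows higher at 15 than at 10 dph. Of the very long genes 19 of 37 were lower at 10 than at 5 dph and 23 of 37 higher at 15 than at 10 dph, and the part of these in the members' changes was not tested.

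The difference between high and low DHA changed from 5 to 10 dph. This change was tested directly, and 14 proteasome rows were lower and NFE2L1 higher (4.53% of all rows lower and 13.6% higher), with a median of -0.48 over the 38 rows against -0.01. NFE2L1 had a change of 1.00 ± 0.19 (edgeR adjusted p = 0.00673), from -0.85 ± 0.15 at 5 dph to 0.14 ± 0.13 at 10 dph. With its counts and those of Nfe2l1 summed, the change was 0.52 ± 0.13 (edgeR adjusted p = 0.0148). Of the roles, 4 of 6 ATPases, 5 of 11 other cap rows, 1 of 8 alpha rows and 1 of 6 beta rows passed, along with psmg1, psmg2 and PSME3. PSME3 had a change of -0.56 ± 0.13 (edgeR adjusted p = 0.0107), Psmc1 of -0.57 ± 0.14 (edgeR adjusted p = 0.0135) and PSMA1 of -0.63 ± 0.17 (edgeR adjusted p = 0.02). With the length score 0 members passed in edgeR, with 2 at an unadjusted p under 0.05, and the median was -0.05 in place of -0.48. Between 1 and 20 members passed when a library was left out, fewest without high replicate 3 at 5 dph. From 10 to 15 dph 0 members changed in edgeR and in DESeq2 (3.44% of all rows passed in edgeR). At an unadjusted p under 0.05 there were 2 proteasome rows, and 1522 of all 7292 rows.

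The subunits moved together from library to library. Across the 26 libraries the correlation of each core or cap row with the mean of the other such rows was highest for Psmd14 (Pearson r = 0.97) and Psmc1 (0.96) and lowest for psmb4 (0.38), psmd11a (0.40) and psmd11b (0.54). These values are descriptions, since all rows share the libraries and their groups. The mean of the 31 core and cap rows and NFE2L1 had an r of -0.43, and that mean and Nfe2l1 an r of 0.27. With the length score the subunit mean had an r of -0.47 and NFE2L1 an r of 0.60.

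**Figure D5:**
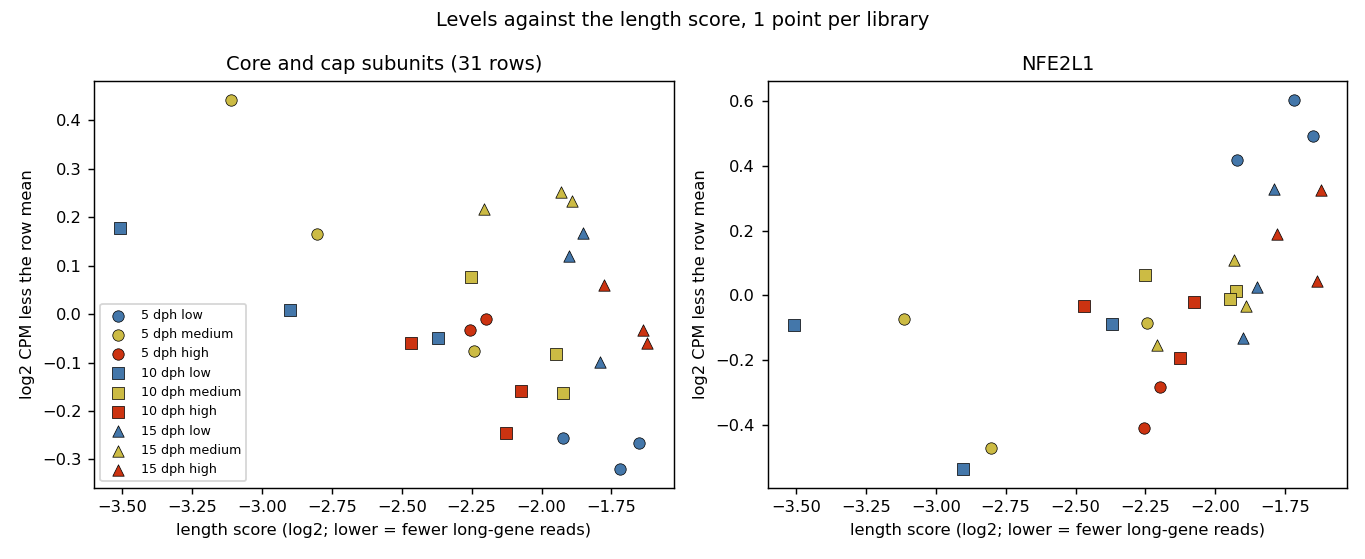
Mean log2 CPM of the 31 core and cap rows, less each row's mean (left), and the same for NFE2L1 (right), against the length score of the library; 1 point per library, with shapes for age and colours for DHA level. The low DHA libraries at 5 dph (blue circles) lie lowest on the left and highest on the right.

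Subunit means were set beside length scores by group. The low DHA libraries at 5 dph had length scores of -1.92 to -1.65 and subunit means of -0.32 to -0.26, and the low DHA libraries at 15 dph had scores of -1.90 to -1.79 and subunit means of -0.10 to 0.17. These groups differ in age, so this is a description of the libraries. Within 5 dph the scores averaged -1.76, -2.23 and -2.72 with low, high and medium DHA, and the subunit means -0.28, -0.02 and 0.18. Within 10 dph, in the same order, scores were -2.93, -2.22 and -2.04 and subunit means 0.04, -0.15 and -0.06. Within 15 dph scores were -1.85, -1.68 and -2.01 and subunit means 0.06, -0.01 and 0.23. The part of the score was not tested beyond the fits with it as a covariate.

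Of the rows outside the members, the ones most like the subunit mean over the 26 libraries were Txnl1 (r = 0.94), a thioredoxin-like protein bound to the cap, PMPCB (0.91), a protease subunit that processes mitochondrial precursors, Rrp7a (0.90), akr1a1b (0.90) and C1qbp (0.88). For NFE2L1 they were MSI1 (0.75), FHOD3 (0.74), DEGS2 (0.73), Etnk1 (0.71) and Ehbp1l1 (0.69).

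The rest of the pathway was read from lists. Of 12 rows for proteasome partners named outside the PSM series, 8 were higher and 0 lower with medium than with low DHA at 5 dph (16.7% of all rows higher and 10.4% lower), with a median of 0.42. Txnl1 had a mean of 56.5 ± 1.75 CPM with low and 92.4 ± 25.3 with medium DHA (0.71 ± 0.14, edgeR adjusted p = 0.00561). The deubiquitinase USP14, which trims ubiquitin at the cap, rose by 0.49 ± 0.10 and Sem1, a small cap subunit, by 0.66 ± 0.14 (edgeR adjusted p = 0.00561 for both). Of 17 rows for the processing and partners of NFE2L1 3 were higher and 0 lower, ruvbl1 (0.37 ± 0.08), UFD1 (0.34 ± 0.10) and RAD23B (0.27 ± 0.10). Of 22 rows for ubiquitin and its E1 and E2 enzymes 5 were higher and 0 lower, among them rps27a (0.58 ± 0.13) and UBB (0.52 ± 0.13), which encode ubiquitin itself. The medians of these lists were 0.06 and 0.02, and their shares of higher rows were near that of all rows. In the autophagy list 7 of 23 rows were higher and 2 lower, and in the class I antigen presentation and interferon list 0 of 7 were higher and 1 lower.

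Muscle ubiquitin ligases and their regulators formed another list. It holds KLF15 and Klf15, and FBXO30 and Fbxo30, as separate rows whose names differ only in capitals. With medium DHA at 5 dph 0 of 13 rows were higher and 3 lower, NEDD4 (-0.53 ± 0.11), KLF15 (-0.63 ± 0.17) and FOXO3 (-0.37 ± 0.11). The row Klf15 did not pass there. At 10 dph 9 of 13 were higher with high than with low DHA and 0 lower (19.4% of all rows higher and 4.39% lower). Both KLF15 and Klf15 are among the 9. FBXO32, the ligase atrogin-1 of wasting muscle, had means of 36.8 ± 13.8 CPM with low and 102 ± 43.3 CPM with high DHA (1.46 ± 0.24, edgeR adjusted p = 0.00127). At 5 dph it stood at 279 ± 31.3 CPM with low DHA, and at 15 dph at 27.5 ± 4.08 CPM. NEDD4 was higher by 0.71 ± 0.12 and TRIM32 by 0.69 ± 0.12 (edgeR adjusted p = 0.00127 for both). In the same comparison Mafk, a small Maf protein that pairs with NFE2L1 on DNA, was higher by 1.58 ± 0.26 (edgeR adjusted p = 0.00127), MAFG by 0.83 ± 0.17 (edgeR adjusted p = 0.00272) and ZFAND5, a proteasome-binding protein of wasting muscle, by 0.87 ± 0.18 (edgeR adjusted p = 0.00261). Marker rows of neurons were higher in 4 of 6, of lens lower in 5 of 6 and of macrophages higher in 2 of 2 in that comparison, and their part was not tested. The summed level of the neuron markers was 452 to 643 CPM with low and 676 to 797 CPM with high DHA. In this comparison 1737 of all tested rows passed in the main fit and 54 with the length score as a covariate. Without both replicates 2 with the lowest scaling factors 678 passed, and 381 in a fit on the compared groups alone. How the ligase, Maf and ZFAND5 rows fared in those fits is not reported here.

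In the antigen presentation and interferon list, 6 of 7 rows rose and 1 fell from 5 to 10 dph (26.7% and 31.3% of all rows). Cd74, the invariant chain of class II molecules, rose by 1.30 ± 0.11 (edgeR adjusted p = 1.72e-09). From 10 to 15 dph 6 rows rose and 1 fell (31.8% and 25.9% of all rows), with CALR higher by 0.81 ± 0.07 (edgeR adjusted p = 1.4e-08).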

How the data were processed

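Whole-larva RNA was sequenced from TruSeq libraries, per the labels' protocols, and the authors deposited whole-number read counts per gene name; DESeq2 is named in the submitters' processing notes, and the sources used here do not give the aligner, genome build or counting rule. From these deposited counts the differences were computed with edgeR 4.0.16 in R 4.3.3 (limma 3.58.1): TMM scaling, removal of 3 rows by filterByExpr, 1 mean for each of the 9 groups of age and DHA level, robust quasi-likelihood F-tests, and Benjamini-Hochberg adjustment over 7292 rows at 0.05. All 26 libraries entered each fit, and 13 comparisons were made. Log2 CPM used a prior count of 2. Depth was 12805866 to 19169404 counts per library, and the lowest member count was 81.

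The members and lists were chosen with earlier results of these data known. The naming rule took NFE2L1, up to 6 rises and 6 falls per comparison by smallest p, and the 3 smallest p where none passed. Added were the most counted row of each role, up to 3 rows of each other list, and the 5 rows most like each profile. Not every row under this rule is named in the text. Left out are psma2, psmb1-A and Psmc5, the most counted of their roles, and some of the smallest p where none passed. Rows outside this rule in the comparison described were chosen after their values were seen. Among them were Nfe2l1, then Psmb5, Psmd14, PSMB7, psmg1, psmg2 and the rows that missed the threshold at 5 dph. Psmb5 and Psmc3 at 15 dph and PSMA4 at 10 dph were also among them. The rule did take Psmb5, PSMB7, psmg2, Psmc3 and PSMA4 in other comparisons.

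The alternatives were the DESeq2 size factors, DESeq2 1.42.0, no filter, the compared groups alone, rows differing only in capitals summed, the length score as a covariate, a replicate block, and leaving out libraries. Deviations of same-numbered libraries correlated above 0.1 in 12 of 25 pairs of the same age and in 11 of 25 of the same DHA level, so the numbers were not taken to pair the samples as a whole. By the numbers in the titles, every pair exceeded 0.1 among high DHA libraries across ages (7 of 7) and between low and medium DHA at 15 dph (3 of 3). Sequences of the members were not used here, and 4 internal control samples were not analysed. Some rows of the other lists are not reported here.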

Additional observations from a re-analysis of the deposited data

Results flagged for a closer look

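The difference between high and low DHA at 10 dph was tested against that at 5 dph, and the members singled out for it are those named for that comparison. NFE2L1 had a change of 1.00 ± 0.19 (edgeR adjusted p = 0.00673), upward. With the counts of NFE2L1 and Nfe2l1 summed it was 0.52 ± 0.13 (edgeR adjusted p = 0.0148). The proteasome rows changed downward: psmg2 by -0.78 ± 0.23 (edgeR adjusted p = 0.025), PSMD7 by -0.63 ± 0.19 (0.0265), PSMA1 by -0.63 ± 0.17 (0.02), PSMD12 by -0.62 ± 0.18 (0.0231), Psmc1 by -0.57 ± 0.14 (0.0135) and PSME3 by -0.56 ± 0.13 (0.0107). The length score of low DHA libraries also went down between these ages, from -1.76 to -2.93, and its part in these changes was not tested beyond the fit with the score as a covariate, in which 0 of the 39 members passed in edgeR.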

How the results depend on the processing

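Of 3042 alternatives for 168 single member results, 2823 stayed on the same side of the threshold. Among these, a difference that passed in neither fit could change sign. NFE2L1 for high with low DHA at 10 dph was such a case (0.14 in the main fit, -0.03 at the lowest). A further 188 kept the direction but lost the call, and 28 gained one. Where the main fit or the alternative passed, 3 reversed. These were Psmc1 for medium with low DHA at 10 dph with the length score (0.020), psmb4 for 15 with 10 dph with the length score (0.0019) and NFE2L1 for 10 with 5 dph with rows summed (0.23). When the length score entered the fit, members called numbered 0 for high with low and for medium with low DHA at 5 dph, 0 for high with low and 1 for medium with low DHA at 10 dph, 3 for high with medium DHA at 15 dph, 18 for 10 with 5 dph, 29 for 15 with 10 dph, and 0 for the change in the difference of high and low DHA from 5 to 10 dph. Of all tested rows 2, 0, 54, 718, 1070, 4313, 2769 and 55 passed with the score, in the same order. Another fit left out both replicates 2 with the lowest scaling factors. Members called then numbered 6 for medium with low DHA at 5 dph, 1 and 3 for high and medium with low DHA at 10 dph, and 9 for the change from 5 to 10 dph. The counts over all rows were 396, 678, 2200 and 948, in the same order. Fits on the compared groups alone gave 31 members for high with low and 9 for medium with low DHA at 5 dph, 1 and 3 for the same at 10 dph, and 29 for the change from 5 to 10 dph. Over all rows they gave 1951, 854, 381, 1991 and 1686, in the same order. DESeq2 gave 1 member for high with medium DHA at 10 dph. The causes were not tested.

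Leaving out 1 library gave 0 to 1 members for high with low, 0 to 34 for medium with low and 0 to 11 for high with medium DHA at 5 dph. At 10 dph the ranges were 0 to 9, 3 to 8 and 0 to 1, and at 15 dph 0 to 0, 0 to 0 and 2 to 5, in the same order. They were 7 to 13 for 10 with 5 dph, 17 to 22 for 15 with 10 dph, 1 to 20 for the change from 5 to 10 dph and 0 to 2 for that from 10 to 15 dph. With the replicate number as a block, 32 members passed for medium with low DHA at 5 dph, 11 for high with medium DHA at 15 dph and 0 for medium with low DHA at 15 dph, where all 3 pairs correlated. With the number as a block within each DHA level, 9 passed for 10 with 5 dph, 20 for 15 with 10 dph and 12 for the change from 5 to 10 dph. No count moved by over 1.5 times under a block. Apart from the fit without replicate 2 of medium DHA at 5 dph, counts over all rows with a library left out or a block are not reported here.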
